A study of Mus musculus with 192 samples.

Results

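Transfection of mouse embryonic stem cells (mESCs) of the E14 line with a mimic of miR-216a-5p was compared with transfection of a scrambled mimic, a control RNA of no intended target, in 3 batches each. The 6 libraries were taken by their labels from the 192 samples of the series, which follows miRs and mRNAs of mESCs during retinoic acid (RA) differentiation. Against other mimics of the same library set, 99 mRNAs were lower by amounts under 2-fold, and 51.0% of those with an annotated 3' untranslated region (3' UTR) held a match of 7 or 8 bases to the miR-216a-5p seed there, against 12.8% of genes tested. How many genes passed the test depended on 1 library and on the reference. Against scrambled, the median log2 change of genes with such a match differed by -0.01 from that of genes with none. The batches lay on both sides of 0 there, and the other mimics differed from scrambled by 0.04 at the same sites. Leo1, the mRNA that the study tied to this miR, did not pass the test in any comparison.

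MicroRNAs are short RNAs that guide Argonaute proteins to mRNAs. Pairing of the miR seed, bases 2 to 8 from its 5' end, with a match in the 3' UTR leads to decay or reduced translation of the mRNA. miR-216a lies in a cluster with miR-216b and miR-217 and is best known from the pancreas, where it is abundant. A mimic is a double-stranded RNA from which the cell loads the mature miR, so a mimic adds the miR to cells that may hold little of it.

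The cells were wild-type E14, an established mESC line, seeded in 2i medium 48 h before transfection. Medium with 10% FBS was given for the transfection itself. Mimics were mixed with Lipofectamine RNAiMAX at 100 nM, a concentration in the transfection mix that was then added to the medium. Cells were collected 24 h later. The study's protocol names fixation in 4% paraformaldehyde at collection and does not say whether cells taken for RNA were fixed. The miR-216a-5p and the scrambled libraries therefore shared the line, the medium, the reagent, the dose and the time, and differed in the RNA added. They also differed in another way. The mimic libraries were deposited in 2 sets, each with batches 1, 2 and 3, and scrambled was in the first set while miR-216a-5p was in the second. The sources used here do not say what set the library sets apart. In the comparison of miR-216a-5p with scrambled, the library set and the miR cannot be told apart. The comparison was for that reason repeated within the second set, against the mean of 6 other mimics of that set (miR-135b-3p, miR-150-3p, miR-193b-5p, miR-194-1-3p, miR-1946a and miR-5615-3p, 18 libraries). The second set also held a miR-1946b mimic, which was left out of this reference and was added in 1 alternative. Replicates are batches of 1 cell line. With batch as a block, p-values measure how far differences between groups vary from batch to batch, pooled over the groups of a fit. The stranded mRNA libraries do not read a 22-base RNA, so uptake of the mimic was not measured in them.

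The mature miR is shown first because the sites below are read from it, with the seed in capitals. It is encoded at chr11:28757018-28757039 on the plus strand of GRCm38 (mm10), and the sequences of the miR and of its cluster neighbour were taken from RefSeq.
miR-216a-5p: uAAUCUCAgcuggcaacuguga
miR-216b-5p: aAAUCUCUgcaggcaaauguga
The seeds of these neighbours differ in their last base. Sites that do not pair with that base, the 6mer and the 7mer-A1 defined below, are therefore the same for both. Matches were searched on the sense strand of the longest annotated 3' UTR of each gene, and each gene was counted once under its best match. An 8mer is TGAGATTA, a 7mer-m8 is TGAGATT without the final A, a 7mer-A1 is GAGATTA without the leading T, and a 6mer is GAGATT alone. Of 12001 tested genes with an annotated 3' UTR, 3.38% had an 8mer as the best match, 9.43% a 7mer-m8, 3.46% a 7mer-A1 and 11.9% a 6mer. The sites below belong to mRNAs that were lower with the mimic than with the other mimics, except Leo1. It is shown because it carries the longest kind of match and was not called. Each is 22 bases of GRCm38 3' UTR sequence, written 5' to 3' on the strand of the gene, with the seed match in capitals.
Kpna3 8mer, chr14:61365566-61365587, minus strand: aattttgcacacatTGAGATTA
B230219D22Rik 8mer, chr13:55701078-55701099, plus strand: ttttaaaatgccttTGAGATTA
Rps6ka5 8mer, chr12:100548568-100548589, minus strand: ctgcctttttctttTGAGATTA
Purb 8mer, chr11:6470089-6470110, minus strand: ttttagtaagtgaaTGAGATTA
Nipsnap3b 7mer-m8, chr4:53021614-53021635, plus strand: aatatcttgccttcTGAGATTt
Lamc1 7mer-m8, chr1:153220147-153220168, minus strand: tacctacctgcctcTGAGATTc
Rfk 7mer-A1, chr19:17400373-17400394, plus strand: ttcccatgtcgcccaGAGATTA
Leo1 8mer, chr9:75466364-75466385, plus strand: tgagttattttgatTGAGATTA
A match is a description of the sequence and does not show that the miR binds there.

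The miR-216a-5p libraries held 11389373 to 16669631 counts over 18394 to 18784 genes with a count. The scrambled libraries held 10295321 to 19956841 counts, and the scrambled library of batch 2 had the fewest genes with a count (15335, against 18629 and 19102 in the other two). The share of counts from mitochondrially encoded genes was 1.39% to 1.78% with miR-216a-5p, 0.862% to 1.3% with scrambled and 1.44% to 2.11% with the 6 other mimics of the second set. The libraries had the profile of mESCs. Summed levels of 8 mESC markers were 5400 to 6008 CPM (counts relative to the depth of each library, after TMM scaling) with miR-216a-5p and 5436 to 6382 with scrambled. Of 7 fibroblast markers, Postn and S100a4 had no count in any of these 6 libraries, and the sum was 12.4 to 16.3 CPM with miR-216a-5p and 13.3 to 20.6 with scrambled. In RNA of whole cultures, fewer cells of a type and less RNA per cell cannot be told apart.

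Against scrambled, 33 of 12571 genes (0.263%) passed an adjusted p of 0.05 in edgeR's quasi-likelihood test with batch as a block. Of these, 19 were higher (0.151% of genes tested) and 14 were lower (0.111%). In order of p, the calls were led by RNAs that are no usual miR targets. Among the 19 higher were 4 mitochondrially encoded mRNAs, 4 pseudogenes and the noncoding RNAs Neat1 and Meg3, and among the 14 lower were 6 pseudogenes. Pseudogenes share reads with their parent genes, so these calls are uncertain. Gm10359 and Gm12671, both pseudogenes, had equal counts in these 6 libraries. Of the 6 lower genes with an annotated 3' UTR, 4 had an 8mer or a 7mer-m8 (0.261% of 1531 tested genes with such a match). The other 2 had no match (0.0234% of 8543). Of the 9 higher genes with an annotated 3' UTR, 1 had an 8mer or a 7mer-m8 (0.0653%) and 6 had no match (0.0702%). The number of calls was 0 without the batch block (424 genes at an unadjusted p under 0.05, edgeR), and 134, 88 and 102 without batch 1, 2 and 3.

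The genes of this paragraph were chosen after their values were seen. mt-Nd4, a mitochondrially encoded subunit of complex I, was at 941, 1121 and 1524 CPM in batches 1, 2 and 3 with miR-216a-5p and at 555, 794 and 862 with scrambled. The ranges did not overlap, and the difference was 0.69 (SE 0.09, adjusted p = 0.00211) on the log2 scale. The 6 other mimics differed from scrambled by 0.86 for the same gene (adjusted p = 1.94e-05, edgeR), and miR-216a-5p differed from those 6 mimics by -0.17 (adjusted p = 0.292). Neat1, the scaffold RNA of nuclear paraspeckles, was at 49.8, 63.2 and 50.9 CPM with miR-216a-5p and 27.1, 34.0 and 30.3 with scrambled, a difference of 0.84 (SE 0.11, adjusted p = 0.00211). It too was higher in the 6 other mimics than in scrambled, by 0.98 (adjusted p = 0.00138). Rps15a, a protein of the small ribosomal subunit, was at 231, 206 and 229 CPM with miR-216a-5p and at 368, 342 and 305 with scrambled. Its longest 3' UTR has an 8mer and a 7mer-m8, and its shortest has no match. Its difference from scrambled was -0.61 (SE 0.09, adjusted p = 0.0069) with miR-216a-5p and -0.75 (SE 0.21, adjusted p = 0.0364) with the 6 other mimics. Each of these differences from scrambled was thus also present without miR-216a-5p.

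The other mimics of the second set were compared with scrambled in the same way, a contrast in which the set and the effects of those mimics cannot be told apart. The 6 other mimics of the second set differed from scrambled in 1130 of 12735 genes (8.87%), of which 567 (4.45%) were higher and 563 (4.42%) were lower. Scrambled and untreated cells, both of the first set, differed in 1 of 12339 genes (0.0081%), with 512 at an unadjusted p under 0.05. Against scrambled, miR-216a-5p had 1035 genes at an unadjusted p under 0.05. The part of the library set in each call against scrambled was not tested.

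From the mean of 6 other mimics of its own set, without miR-1946b, miR-216a-5p differed in 141 of 12725 genes. Of these, 99 were lower (0.778% of genes tested) and 42 were higher (0.33%). The calls were small. The 99 lower genes differed by -0.79 to -0.17 on the log2 scale with a median of -0.29, and the 42 higher genes by 0.15 to 0.55 with a median of 0.29. Of the lower genes, 98 were protein coding. Every one of the 141 had the same direction in each of the 3 batches. In 25 of the 99 lower genes and 2 of the 42 higher genes, the 3 miR-216a-5p libraries did not overlap the 18 libraries of the other mimics. Over all genes tested, called or not, 35 (0.275%) lay below and 10 (0.0786%) lay above all 18, and the calls were made on the same values. A difference from the mean of other mimics also holds what those mimics changed, and the count moved with the reference and with single libraries. It was 6 when the miR-1946b mimic was added to the reference, 11 without the batch block, and 50, 8 and 40 without the miR-216a-5p library of batch 1, 2 and 3. Of the genes described here, Rfk, Nipsnap3b, B230219D22Rik, Kpna3, Prkx and Prdx3 still passed without batch 2, and the other 20 called against the other mimics did not.

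The same test gave larger counts for most other mimics of the set. Each mimic against the other 6 called 1563 genes (12.3%) for miR-135b-3p, 1177 (9.25%) for miR-5615-3p, 819 (6.44%) for miR-194-1-3p and 808 (6.35%) for miR-193b-5p. The counts for miR-1946a and miR-150-3p were 102 (0.802%) and 21 (0.165%). With 141 genes (1.11%), miR-216a-5p came after 4 of the other 6 in this order. These comparisons share their libraries with one another and are given side by side.

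mRNAs with a seed match made up most of the genes that were lower against the other mimics. Of the 98 lower genes with an annotated 3' UTR, 50 (51.0%) had an 8mer or a 7mer-m8, against 12.8% of all genes tested. Any match, down to the 6mer, was found in 76 of the 98 (77.6%), against 28.2% of genes tested. Of the 42 higher genes, 7 (16.7%) had an 8mer or a 7mer-m8. By class, the share of genes called lower was 4.93% for the 8mer, 2.65% for the 7mer-m8, 3.61% for the 7mer-A1, 0.771% for the 6mer and 0.255% for genes with no match. The count called higher was 1, 6, 1, 7 and 27 genes in the same order of classes. The lower genes also had long 3' UTRs, with a median of 2362 bases against 1174 over all genes tested and 2034.5 in the higher genes, and a longer 3' UTR holds more matches of any kind. Their 3' UTRs had a median GC content of 38.3%, against 44.8% over all genes tested and 51.6% in the higher genes.

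**Figure D1:**
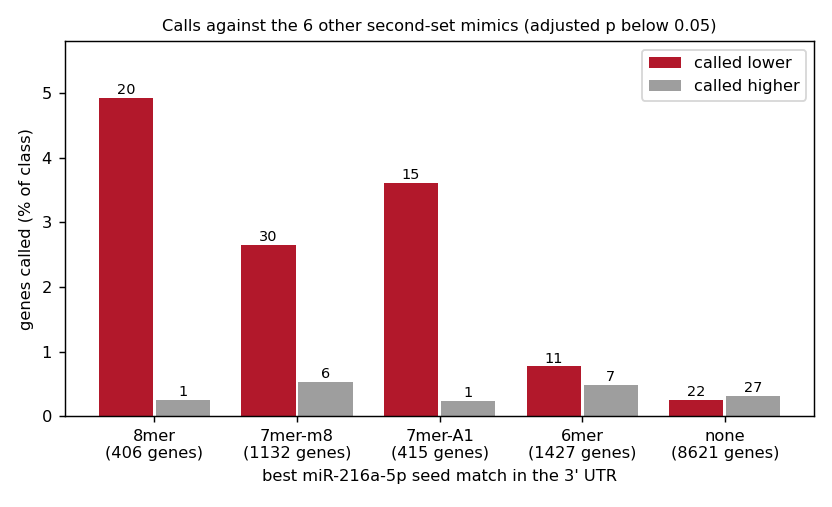
Percent of tested genes called higher or lower with miR-216a-5p against the 6 other second-set mimics (y axis), by the best seed match in the 3' UTR (x axis, with the number of genes in each class). The share called lower is highest for 8mer genes (4.93%) and lowest for genes with no match (0.255%), with 7mer-A1 (3.61%) above 7mer-m8 (2.65%). The share called higher lies between 0.241% and 0.53% in every class.

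Over all genes, the shift was a few hundredths of a log2 unit. Against the other mimics, the median log2 fold change was -0.05 over 406 genes with an 8mer, -0.03 over 1132 with a 7mer-m8, -0.03 over 415 with a 7mer-A1, -0.01 over 1427 with a 6mer and 0.02 over 8621 with no match. It also fell with the number of matches, from 0.02 with no 8mer or 7mer-m8 to -0.03 with 1, -0.05 with 2 and -0.09 with 3 or more, the last over 42 genes. Genes with a match in the coding sequence and none in the 3' UTR had a median of 0.00 over 882 genes, and genes with no match in either had 0.03. Genes are not replicates, so these medians are given as a description with no test.

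**Figure D2:**
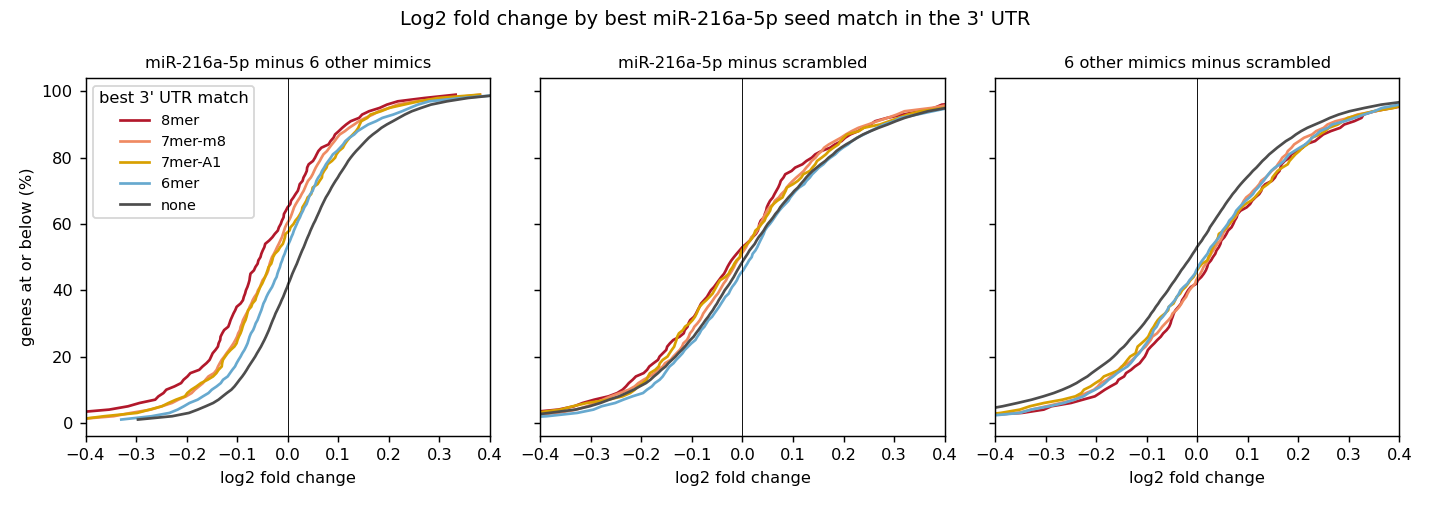
Cumulative percent of genes (y axis) at or below each log2 fold change (x axis, from -0.4 to 0.4), by the best miR-216a-5p seed match in the 3' UTR, with 1 panel a comparison. Against the 6 other second-set mimics the curves of 8mer and 7mer-m8 genes lie to the left of that of genes with no match, with medians of -0.05, -0.03 and 0.02.

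The seed site shift, the median of genes with an 8mer or 7mer-m8 minus that of genes with no match, put this in 1 value for each batch. Against the other mimics it was -0.03, -0.11 and -0.05 in batches 1, 2 and 3 and -0.06 in the fit over all 3. All 3 batches lay below 0, and batch 2 lay lowest. In 4 groups of genes of equal number by 3' UTR length it was -0.05, -0.06, -0.06 and -0.04 from the shortest to the longest, and in 4 such groups by 3' UTR GC content, from low to high, it was -0.06, -0.04, -0.02 and -0.04. Against scrambled the shift was 0.06, -0.01 and -0.08 in the 3 batches and -0.01 in the fit, so the batches lay on both sides of 0. The 6 other mimics, which are not of this seed, differed from scrambled by a shift of 0.04 at the same sites, and scrambled differed from untreated cells by 0.01.

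Each group of libraries was compared with the others of its own set in the same way, with miR-1946b left out of the second set. At miR-216a-5p sites, the 6 other mimics of the second set had shifts of 0.00 to 0.02, against -0.06 for miR-216a-5p itself. The miR-216a-5p libraries are part of the reference of each of those 6, so a low value for miR-216a-5p raises theirs. These values are therefore no separate comparison. The 8 groups of the first set, whose references hold no miR-216a-5p library, had shifts of -0.03 to 0.03. At the sites of their own seeds, the shifts were -0.14 for miR-135b-3p, -0.08 for miR-5615-3p, -0.06 for miR-194-1-3p, -0.02 for miR-150-3p and -0.01 for miR-193b-5p. The shift of miR-216a-5p at its own sites was thus of the size of that of miR-194-1-3p. Of the genes called lower, the share with an own site was 41.4% of 382 for miR-194-1-3p (13.5% of genes tested), 36.7% of 592 for miR-5615-3p (14.6%), 33.1% of 710 for miR-135b-3p (7.52%), 16.4% of 396 for miR-193b-5p (8.93%) and 44.4% of 18 for miR-150-3p (10.3%). The mature sequence of miR-1946a was not matched in the RefSeq table, and it has no own-site value.

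**Figure D3:**
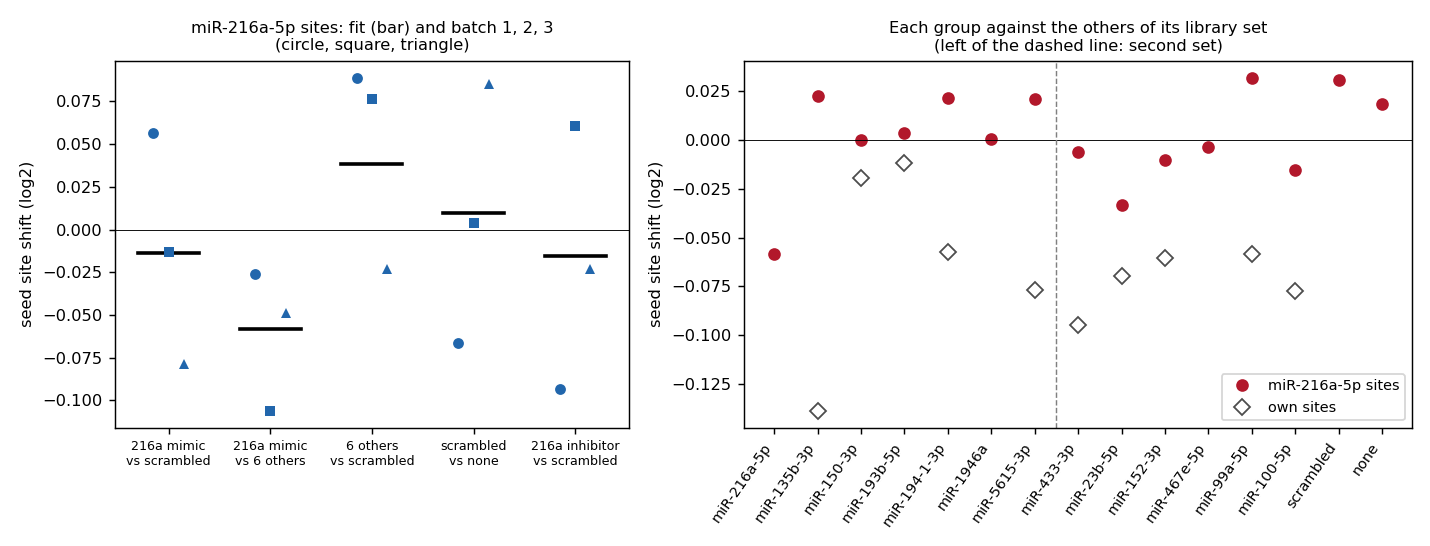
Left: seed site shift (y axis, log2) at miR-216a-5p sites in 5 comparisons (x axis), with the fit as a bar and batches 1, 2 and 3 as a circle, square and triangle. Right: shift of each group of libraries against the others of its set (miR-1946b left out), at miR-216a-5p sites and at sites of its own seed. At miR-216a-5p sites, miR-216a-5p is the lowest of the groups with -0.06. Its libraries are in the reference of each other second-set mimic, which raises the values of those mimics.

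Among the genes of lowest p against the other mimics were 4 with a match in the 3' UTR, Rfk, Nipsnap3b, Kpna3 and B230219D22Rik. Rfk encodes riboflavin kinase, which makes FMN from vitamin B2 and so supplies the flavin cofactors of many enzymes. It was at 23.3, 20.7 and 21.7 CPM in batches 1, 2 and 3 with miR-216a-5p, at 30.8 to 44.4 (median 36.6) over the 18 libraries of the other mimics and at 33.0, 24.8 and 32.4 with scrambled. The miR-216a-5p libraries lay below all libraries of both other groups. The difference was -0.72 (SE 0.07, adjusted p = 4.59e-05) against the other mimics by edgeR and -0.45 (SE 0.13, adjusted p = 0.249) against scrambled.

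Nipsnap3b, of the NIPSNAP family of mitochondrial proteins, was at 15.0, 12.1 and 18.6 CPM with miR-216a-5p, at 21.3 to 29.0 (median 26.4) with the other mimics and at 23.8, 28.9 and 23.7 with scrambled. Again there was no overlap with either group. Its difference was -0.79 (SE 0.09, adjusted p = 0.000191) against the other mimics and -0.75 (SE 0.17, adjusted p = 0.0933) against scrambled, and an 8mer also lies in its coding sequence.

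Kpna3, an importin alpha that carries proteins into the nucleus, was at 148, 152 and 157 CPM with miR-216a-5p and at 163 to 234 (median 197) with the other mimics, again without overlap. With scrambled it was at 149.8, 185 and 177, and the lowest of these libraries lay within the miR-216a-5p range. The difference was -0.38 (SE 0.05, adjusted p = 0.000599) against the other mimics and -0.16 (SE 0.09, adjusted p = 0.673) against scrambled.

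B230219D22Rik is a coding gene of which no role is given here. It was at 58.6, 48.4 and 51.4 CPM with miR-216a-5p and at 65.4 to 91.7 (median 73.7) with the other mimics, without overlap, a difference of -0.52 (SE 0.05, adjusted p = 6.47e-05). With scrambled it was at 48.8, 39.7 and 44.8, which overlapped miR-216a-5p, and the difference there was 0.25 (SE 0.11, adjusted p = 0.565). The 6 other mimics were higher than scrambled by 0.77 (SE 0.06, adjusted p = 1.54e-06). Untreated cells, of the first set like scrambled, were at 60.8, 61.8 and 57.8 CPM, above all 3 scrambled libraries, and scrambled differed from them by -0.45 (SE 0.11, adjusted p = 0.958, unadjusted p = 0.00209, edgeR). The study left this gene and Serp1 out of its own comparisons of mimics, among genes that differed between scrambled and untreated cells. Both are kept here. Prkx, also among the 5 of lowest p, has no match in its 3' UTR. It encodes a catalytic subunit of cAMP-dependent protein kinase and was at 24.4, 25.8 and 23.0 CPM with miR-216a-5p and 28.0 to 38.9 (median 33.5) with the other mimics, a difference of -0.47 (SE 0.05, adjusted p = 0.000191).

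**Figure D4:**
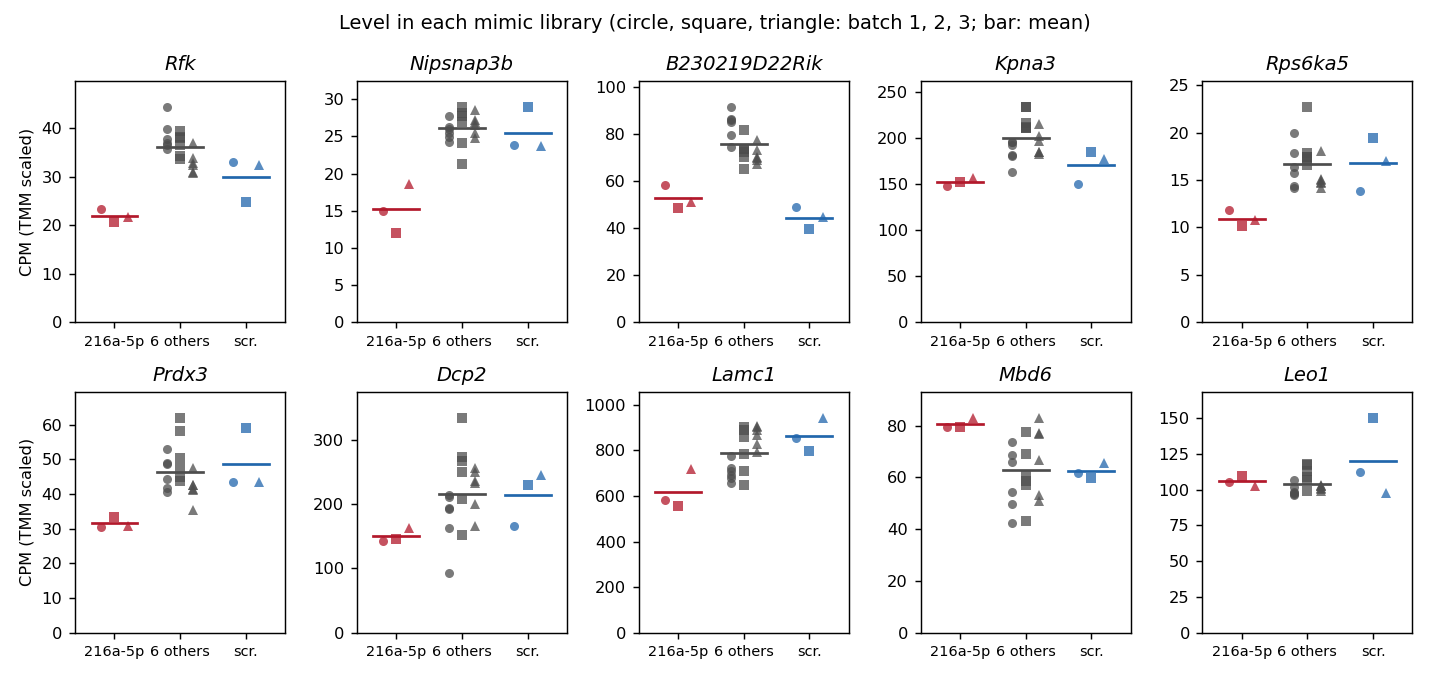
CPM (y axis, from 0) of 10 genes in each miR-216a-5p, other second-set and scrambled (scr.) mimic library, with batches 1, 2 and 3 as circle, square and triangle and the mean as a bar. Rfk, Nipsnap3b, B230219D22Rik, Kpna3, Rps6ka5 and Prdx3 lie below all 18 libraries of the other mimics, and Leo1 lies among them.

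Just 4 genes passed the threshold against scrambled and against the other mimics in the same direction, all of them lower, and none was higher in both. Both comparisons use the same 3 miR-216a-5p libraries. Prdx3, a mitochondrial peroxiredoxin that removes hydrogen peroxide, was at 30.6, 33.5 and 30.8 CPM with miR-216a-5p, 35.6 to 62.1 (median 44.7) with the other mimics and 43.6, 59.2 and 43.5 with scrambled. It did not overlap either group, and it has no match in its 3' UTR. The difference was -0.54 (SE 0.07, adjusted p = 0.000599) against the other mimics and -0.61 (SE 0.12, adjusted p = 0.0375) against scrambled.

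Dcp2, which removes the cap of mRNAs before their decay, was at 142, 145 and 163 CPM with miR-216a-5p and at 166, 229 and 245 with scrambled, without overlap. With the other mimics it was at 93.2 to 334 (median 213), so that 1 of the 18 libraries lay below all 3 miR-216a-5p libraries and 15 lay above. The differences were -0.47 (SE 0.09, adjusted p = 0.0138) and -0.49 (SE 0.10, adjusted p = 0.0481) against the other mimics and scrambled. Its 3' UTR has a 7mer-m8 and a 7mer-A1.

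Lamc1, the gamma chain of the laminins of basement membranes, was at 582, 557 and 719 CPM with miR-216a-5p and at 852, 796 and 944 with scrambled, without overlap. The other mimics were at 649 to 907 (median 789), with 12 of the 18 libraries above the miR-216a-5p range. The differences were -0.35 (SE 0.08, adjusted p = 0.0368) against the other mimics and -0.49 (SE 0.08, adjusted p = 0.021) against scrambled. Lamc1 is also a member of the list of 15 extraembryonic endoderm (XEN) markers, of which 10 were tested against the other mimics and no other member was called. The summed level of that list was 984 to 1220 CPM with miR-216a-5p, 1227 to 1428 with scrambled and 1003 to 1390 with the other mimics. Lamc1 itself, at 557 to 719 CPM with miR-216a-5p, is counted in that sum. The median difference of the list was 0.08 against the other mimics and 0.02 against scrambled, so the markers did not fall as a group. The part of the list in the Lamc1 result was not tested.

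Ppp1ccb, a processed copy of the phosphatase gene Ppp1cc, was at 12.2, 10.5 and 9.93 CPM with miR-216a-5p, 12.7 to 31.3 (median 19.8) with the other mimics and 23.7, 38.8 and 22.8 with scrambled. The difference was -0.79 (SE 0.18, adjusted p = 0.0434) against the other mimics and -1.34 (SE 0.18, adjusted p = 0.00211) against scrambled. Reads of the copy and of its parent are hard to tell apart, so this value is uncertain.

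Of the 20 genes with an 8mer that were lower against the other mimics, the 10 of lowest p were described, Kpna3 and B230219D22Rik among them. Of these 10, 4 are given next, Rps6ka5, Hipk3, Nras and Mapk1ip1l. Rps6ka5 (MSK1), a kinase of histone H3 downstream of MAP kinases, was at 11.8, 10.1 and 10.8 CPM with miR-216a-5p, 14.2 to 22.7 (median 16.5) with the other mimics and 13.9, 19.5 and 17.0 with scrambled. It lay below every library of both groups, with differences of -0.60 (SE 0.10, adjusted p = 0.00424) against the other mimics and -0.60 (SE 0.18, adjusted p = 0.29) against scrambled. Hipk3, a homeodomain-interacting kinase, was at 24.5, 22.3 and 22.8 CPM against 27.0 to 46.8 (median 32.3) with the other mimics, without overlap, and differed by -0.50 (SE 0.08, adjusted p = 0.00471). Nras, a GTPase of the RAS family, was at 111, 113 and 119 against 117 to 150.3 (median 135), with 17 of 18 libraries above the miR-216a-5p range, and differed by -0.25 (SE 0.04, adjusted p = 0.00355). Mapk1ip1l, of which no role is given here, has 2 8mers and a 7mer-m8 in its 3' UTR. It was at 221, 220.1 and 242 against 218 to 298 (median 272) and differed by -0.24 (SE 0.04, adjusted p = 0.00934).

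The other 4 of these genes had roles in transcription, survival and membranes. Purb, which binds purine-rich DNA and RNA, was at 86.2, 93.2 and 93.6 CPM with miR-216a-5p and 92.9 to 172 (median 122) with the other mimics, with 17 of 18 libraries above, and differed by -0.44 (SE 0.06, adjusted p = 0.00175). Api5, an inhibitor of apoptosis, was at 266, 241 and 244 against 277 to 334 (median 295), without overlap, and differed by -0.24 (SE 0.04, adjusted p = 0.00721). Pafah1b2, a catalytic subunit of platelet-activating factor acetylhydrolase, was at 59.4, 56.3 and 57.3 against 59.5 to 79.8 (median 68.3) and differed by -0.27 (SE 0.05, adjusted p = 0.00934), and these libraries again did not overlap. Cmtm6, which stabilises PD-L1 at the cell surface, was at 138, 89.2 and 113 against 103 to 164 (median 132), overlapped by 11 of the 18 libraries, and differed by -0.26 (SE 0.05, adjusted p = 0.0138). None of these 10 genes passed the threshold against scrambled, where the differences ran from -0.60 for Rps6ka5 to 0.25 for B230219D22Rik. The 6 other mimics were themselves called higher than scrambled for Kpna3 (0.22), Nras (0.19), Api5 (0.17), Pafah1b2 (0.23), Cmtm6 (0.15) and B230219D22Rik (0.77). They were not called for Rps6ka5 (-0.01), Purb (0.21), Hipk3 (0.28) and Mapk1ip1l (0.12). The part of this in the differences from the other mimics was not tested.

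The genes of lowest p that were higher against the other mimics included regulators of transcription, RNA and endocytosis. Mbd6, of the methyl-CpG binding domain family, was at 79.7, 79.5 and 83.1 CPM with miR-216a-5p, 42.3 to 82.8 (median 63.5) with the other mimics and 61.7, 59.8 and 65.6 with scrambled. It lay above all scrambled libraries and above 17 of the 18 others, with differences of 0.39 (SE 0.06, adjusted p = 0.00175) against the other mimics and 0.37 (SE 0.10, adjusted p = 0.224) against scrambled. Nfic, a transcription factor of the nuclear factor I family, was at 99.4, 80.3 and 82.5 against 49.2 to 86.8 (median 67.3) and differed by 0.35 (SE 0.06, adjusted p = 0.00408). Nova2, a splicing factor known from neurons, was at 17.5, 19.7 and 21.1 against 8.50 to 18.7 (median 15.0) and differed by 0.53 (SE 0.09, adjusted p = 0.00721). Klhdc7a, a kelch domain protein, differed by 0.45 (SE 0.07, adjusted p = 0.00302), and Ston2, an adaptor of synaptic vesicle endocytosis, by 0.34 (SE 0.06, adjusted p = 0.00934). None of these 5 was called against scrambled. Nfic, Nova2 and Ston2 have a 7mer-m8 in the 3' UTR.

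Leo1, a subunit of the PAF complex that travels with RNA polymerase II, was the gene that the study tied to miR-216a-5p. The study included this miR as a control with no effect awaited. Its main text names Leo1 as a predicted target, while its supplementary legends say that Leo1 was not predicted to be one. The short Leo1 3' UTR of 134 bases holds the 8mer printed above. Leo1 was at 105, 109.5 and 103 CPM in batches 1, 2 and 3 with miR-216a-5p, at 96.1 to 118 (median 102) with the other mimics and at 112, 150.2 and 97.3 with scrambled. The 3 miR-216a-5p libraries lay inside the range of both groups. Against the other mimics the difference was 0.03 (SE 0.04, adjusted p = 0.808) with an unadjusted 95% interval of -0.06 to 0.12. A level more than 0.06 below the mean of those mimics lay outside this interval. The 6 other mimics themselves differed from scrambled by -0.20 (SE 0.07, adjusted p = 0.0699, edgeR). The interval therefore sets no limit on a fall from scrambled. The difference of miR-216a-5p from scrambled was -0.16 (SE 0.11, adjusted p = 0.719) with an interval of -0.39 to 0.07. The scrambled library of batch 2, the one with the fewest genes detected, was the highest, and without batch 2 the difference from scrambled was -0.00. Of 6 PAF complex members, Leo1 included, none was called in either comparison, and their differences from the other mimics ran from -0.12 to 0.07.

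Other genes that are known as targets of miR-216a-5p from other tissues were not called either. The list of 7 also held Leo1, which is not a target known from other tissues. None of the 7 passed the threshold against scrambled or against the other mimics. Jak2, a kinase of cytokine receptors with an 8mer, was at 14.9, 9.11 and 12.0 CPM with miR-216a-5p and 11.2 to 16.5 (median 14.0) with the other mimics. The difference was -0.25 (SE 0.09, adjusted p = 0.241) against the other mimics, with an unadjusted 95% interval of -0.44 to -0.05 that lies below 0, and 0.00 (SE 0.18, adjusted p = 0.999) against scrambled.

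A further 4 were near 0 against the other mimics. The values were 0.06 for Ybx1, an RNA-binding protein of mRNPs, and 0.04 for Smad7, an inhibitor of TGF-beta signalling, both with a 7mer-m8. They were 0.03 for Becn1, which starts autophagosome formation, and -0.09 for Cdc42, a small GTPase of cell polarity. Becn1 has a 6mer and Cdc42 has no match. Smad7 and Becn1 changed sign when 1 miR-216a-5p library was left out, without batch 3 and batch 1 respectively.

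In the pathways of these targets, few other genes were called against the other mimics. Of 12 autophagy genes, Atg12 and Atg16l1 were lower and none was higher, beside 0.778% lower over all genes tested, with a median difference of -0.04 for the list against 0.01 over all genes. The products of these genes act together in the conjugation step that extends the autophagosome membrane. Atg12, with 3 7mer-m8 sites, was at 57.1, 43.7 and 48.0 CPM with miR-216a-5p, 51.6 to 74.8 (median 63.6) with the other mimics and 60.2, 46.1 and 58.9 with scrambled, and differed from the other mimics by -0.36 (SE 0.07, adjusted p = 0.0136). Atg16l1, with a 7mer-m8, was at 50.2, 60.0 and 57.5 against 58.0 to 92.4 (median 70.7) and differed by -0.35 (SE 0.05, adjusted p = 0.0029). The groups overlapped for both genes, with 14 of the 18 libraries above the miR-216a-5p range for Atg12 and 16 for Atg16l1.

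Of 18 genes of TGF-beta and SMAD signalling, Tgfbr1 was lower and none was higher, with a list median of 0.01. Tgfbr1, the type I receptor of TGF-beta, has a 7mer-m8 and a 7mer-A1. It was at 36.2, 34.0 and 34.8 CPM with miR-216a-5p against 35.1 to 59.2 (median 44.7) with the other mimics, with 17 of 18 libraries above, and differed by -0.37 (SE 0.07, adjusted p = 0.0138). Of 12 p53 targets, Ccng1, which encodes cyclin G and has no match, was lower, with 280.0, 289 and 243 CPM against 262 to 462 (median 311) and a difference of -0.25 (SE 0.04, adjusted p = 0.00524). None of 17 PI3K and AKT genes and none of 12 JAK and STAT genes was called, with list medians of -0.03 and 0.06.

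The marker genes of the cell state stayed near their level with the other mimics. Of the 8 mESC markers none was called, and their differences ran from -0.04 to 0.10. Pou5f1, which encodes OCT4, was at 1621, 1609 and 1564 CPM, Sox2 at 459, 381 and 385 and Nanog at 698, 645 and 597 in batches 1, 2 and 3 with miR-216a-5p. Of the 16 naive pluripotency genes, none was called. None of the 4 interferon and double-stranded RNA response genes that were expressed highly enough to test was called against either reference. Of 28 lists in all, autophagy, TGF-beta and SMAD, p53 targets and XEN markers were the ones with a call against the other mimics. They held 5 calls, all lower, among 293 tested places on the lists (1.71%, against 0.778% of all genes), where a gene on several lists counts once for each. Of 22 ribosomal protein genes none was called, with a median of 0.07 against the other mimics and of -0.18 against scrambled, a difference that the 6 other mimics also had from scrambled (-0.22).

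The opposite perturbation used the inhibitor of miR-216a-5p, a locked nucleic acid oligo, which was given at 2-fold the concentration for 48 h in 3 batches (b1b, b2 and b3, called 1, 2 and 3 here) and compared with a scrambled inhibitor. The 2 inhibitors differed in 2 of 12777 genes (0.0157%), 1 higher (0.00783%) and 1 lower (0.00783%) with the miR-216a-5p inhibitor, with 296 at an unadjusted p under 0.05. Both calls were of genes whose reads are uncertain, and both were also called with the mimic against scrambled, though not against the other mimics. Gm28439, a pseudogene, was at 61.3, 51.9 and 87.0 CPM with the inhibitor and 27.1, 26.9 and 34.5 with the scrambled inhibitor, a difference of 1.16 (SE 0.11, adjusted p = 0.0046). Pagr1a, which overlaps Pagr1b on the same strand, was at 0, 0.19 and 0 CPM against 4.77, 2.16 and 5.16, and with libraries at 0 its fitted change depends on the prior count. The seed site shift with the inhibitor was -0.09, 0.06 and -0.02 in the 3 batches and -0.02 in the fit. Leo1 differed by 0.07 (SE 0.09, adjusted p = 0.998), and none of the 7 genes on the list of known targets and Leo1 was called. The count of calls with the inhibitor was 173, 7 and 18 without batch 1, 2 and 3, and 0 without the batch block (94 genes at an unadjusted p under 0.05, edgeR).

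Small RNA libraries of the same line gave the level of the endogenous miR. At 0, 6 and 12 h of RA there was no miR-216a-5p read in any of the 4 libraries a time, which allows a level of up to 0.0924, 0.115 and 0.126 CPM (3 counts over the summed reads, counting error only). The transfected cells were undifferentiated E14 cells too, but spent the 24 or 48 h of transfection in medium with serum, a state that these libraries do not cover. The first reads came at 24 h, where the 4 libraries held 0 to 0.631 CPM (median 0.280). At 48 h they held 2.67 to 109 CPM, at 72 h 0.941 to 254 CPM (median 91.6) and at 96 h 4.10 to 205 CPM (median 150). The libraries of a time differed by more than 10-fold from 36 h on.

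**Figure D5:**
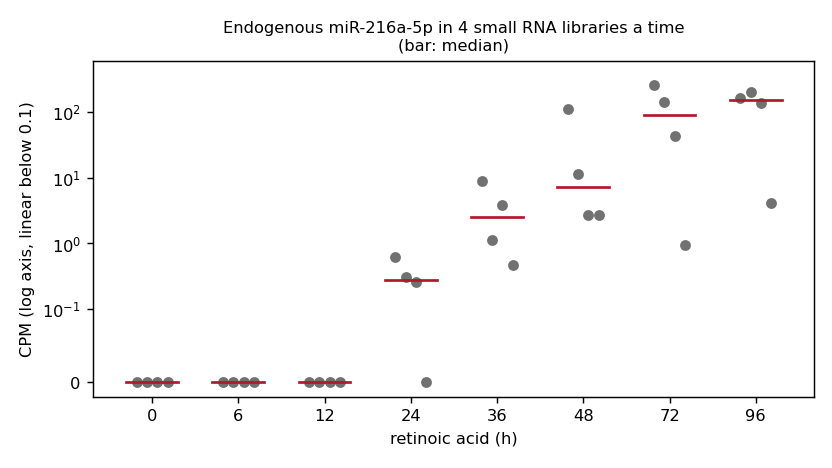
Endogenous miR-216a-5p (y axis, CPM on a log axis that is linear below 0.1) in each of 4 small RNA libraries a time, against hours of RA (x axis), with the median as a bar. The miR was at 0 in all libraries up to 12 h and reached medians of 91.6 and 150 CPM at 72 and 96 h.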

How the data were processed

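Expected counts per gene, which the authors estimated with RSEM 1.3.1 after trimming with Trimmomatic 0.38 and alignment with STAR 2.6.1a to mm10 (Ensembl release 93), were deposited without scaling and were rounded to whole numbers here. The submitters' processing notes also name DESeq2 1.26. Read counts per miR of 32 small RNA libraries are as the authors deposited them. Genes whose counts averaged more than 20 across the libraries of a fit were scaled by TMM and tested with the two-sided quasi-likelihood test of edgeR 4.0.16 (R 4.3.3) with batch as a block, Benjamini-Hochberg adjustment over all tested genes and a threshold of 0.05. CPM values were TMM scaled over 27 mimic libraries and, apart from these, over the 6 inhibitor libraries, and CPM of the small RNA is the read count over the library total. The labels give batches b1, b2 and b3 to the mimics and b1b, b2 and b3 to the inhibitors, and deviations from the group means correlated within each batch (0.54, 0.35 and 0.19 against scrambled, 0.71, 0.64 and 0.44 against the other mimics and 0.33, 0.32 and 0.31 for the inhibitor). No pair of replicates was closer than 6.14 times the sampling noise (chi-square per degree of freedom, 33 pairs), so none was counted as 1 sample. Seed matches were read from the longest 3' UTR of each gene in GENCODE M21, and miR sequences from RefSeq (GRCm38.p6).

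Genes were named where they passed the threshold in both mimic comparisons in the same direction with a mean count of at least 50. They were also named where they were among the 5 of lowest p in a direction or the 10 of lowest p with an 8mer against the other mimics. Leo1, known targets and called members of 28 gene lists were named too. Members and lists were chosen with earlier results of these data known. On simulated counts, changes of 0.5 and 1 on the log2 scale were recovered for 50% and 92% of genes against scrambled (12478 genes) and for 84% and 100% against the other mimics (12664 genes). Unchanged genes made up 2 of 144 calls and 11 of 195 calls there. The simulated counts held no batch differences and none among the reference mimics, and changed genes had a mean count of at least 50. Recovery in the real libraries may therefore be lower. Alternatives were DESeq2 1.42.0 and its size factors, no block, other filters, other references and each replicate left out in turn. No value of the deposited TPM and FPKM columns is printed, and 130 samples of the series were not used here. The miR-100-5p mimic library of batch 3, with 7037 genes that have a count, was left out by the study and is in no fit here. The values of 1 known target are not reported here.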

Additional observations from a re-analysis of the deposited data

Results flagged for a closer look

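The level of endogenous miR-216a-5p at 48 h of RA was marked for a closer look because 1 of the 4 small RNA libraries stood apart. The libraries held 2.67, 2.69, 11.6 and 109 CPM, and the gap below the highest took up 0.917 of the whole range, above Dixon's critical value for 4 samples. The rule marks about 1 group in 20 by chance.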

How the results depend on the processing

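Against scrambled, 33 genes were called. The count was 61 with DESeq2 in place of edgeR (21 higher and 40 lower), 0 without the replicate block, 160 with no filter on low counts, 57 with more than 20 counts in every library, 776 against all 8 groups of the first set and 12 at an adjusted p of 0.01. With 1 batch left out it was 88 to 134, and without the scrambled library of batch 2 alone, an alternative added after seeing the data, it was 87. It was 33 with DESeq2's size factors and 23 against untreated cells. Against the 6 other mimics, 141 genes were called. The count was 259 with DESeq2, 11 without the replicate block, 15 with the 6 reference mimics taken as 1 pooled group, 6 with the miR-1946b mimic added to the reference and 34 at an adjusted p of 0.01. It was 69 without miR-135b-3p in the reference, 72 without miR-193b-5p, 335 without miR-5615-3p and 101 to 194 without each other mimic, 148 with DESeq2's size factors, 140 with no filter and 181 with the stricter filter. With 1 miR-216a-5p library left out it was 8 to 50, and 50, 8 and 38 of the 141 genes remained called without batch 1, 2 and 3. The 8 were B230219D22Rik, Kpna3, Nipsnap3b, Prdx3, Prkx, Rbmxl1, Rfk and Trmt6. The 6 left with miR-1946b in the reference were Nipsnap3b, Prdx3, Rfk, Serp1, Trmt6 and Wdr1. These genes beyond the naming rule were named after their values were seen. The cause of these moves was not tested.

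The share of lower genes with an 8mer or 7mer-m8 was 41.6% to 65.6% over all alternatives, computed after seeing the data, and the seed site shift against the other mimics was -0.08 to -0.03. Against scrambled the shift was -0.01, and -0.052 to 0.013 with 1 batch left out, with its sign reversed to 0.013 without batch 3. For the inhibitor, 2 genes were called, with 3 by DESeq2, 0 by edgeR without the replicate block (94 genes at an unadjusted p under 0.05), 0 against untreated cells (688), 0 against the mean of the other 13 inhibitors (811), 31 with no filter, 1 with the stricter filter, 1 at an adjusted p of 0.01 and 7 to 173 with 1 batch left out, and its seed site shift of -0.02 was -0.063 to 0.020 with 1 batch left out, with its sign reversed to 0.020 without batch 1. Without the block, the 6 other mimics differed from scrambled in 144 genes. Against the other mimics, Smad7 was at -0.00087 to 0.078 with 1 library left out, below 0 without batch 3, and Becn1 at -0.0032 to 0.061, below 0 without batch 1. Of 32 named genes and targets, 32 kept their direction and side of the threshold with DESeq2, and 13 did without the block. It was 12 without batch 2. On simulated counts the test against scrambled recovered 50% of log2 changes of 0.5, so a gene not called there may still differ by such an amount.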
